A study of Mus musculus with 4 samples.

Results

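The 10 genes described here make, sense or oppose prostaglandin and endothelin signals, which set the tone of the ductus arteriosus (DA), the fetal vessel that joins the pulmonary artery to the aorta. They were chosen by name: Ptgs1, Ptgs2, Ptgis, Ptger1, Ptger2, Ptger3, Ptger4, Edn1, Ednra and Ednrb. A peak belonged to a gene if the deposited annotation listed that gene's symbol for it, and a gene with no such row counted as a gene without a peak. By this rule 5 of the 10 genes had a peak (Ptgs1, Ptgs2, Ptger4, Edn1 and Ednra), with 15 of the 13977 peaks of the list between them. In the whole list, 5246 genes had a peak. Among protein-coding genes of the reference annotation the share with an assigned peak was 20% (4389 of 21951). The study had already named Ptger4 and Edn1 as bound in this same set of peaks. The share among the 10 genes was thus in part fixed in advance.

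The measurement was ChIP-seq of PRDM6, a PR/SET domain zinc finger protein enriched in smooth muscle cells (SMCs). Primary SMCs were cultured from the outflow tract (aortic arch and DA) of late-gestation Prdm6 fl/fl mouse embryos, and all libraries came from cells infected with a lentivirus that overexpressed FLAG-tagged PRDM6. There were 2 PRDM6 ChIP libraries, precipitated with an antibody to FLAG, and 2 Input libraries of the same kind of chromatin. No library came from cells without the tagged protein, and the peaks are those of an overexpressed protein in cultured cells, for which the sources used here state no Cre treatment. The study calls the 2 precipitations the same sample in one passage and independent replicates in another, so the spread between them may be technical. The list holds 1 set of peaks matched between both replicates and no value of the Input libraries, so ChIP and Input could not be compared here, and RNA levels of the cells' markers, and of these 10 genes, were not measured by it.

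Peak strength is given as the −log10 p of MACS2, in which each ChIP replicate was set against its own input. The list gives a strength for each replicate, named only by its place in the list as first-listed or second-listed, and the matched strength is the smaller of both. A peak called the strongest or weakest is so by matched strength unless a replicate is named. Reproducibility is given as the global irreproducible discovery rate (IDR), which is low for peaks that rank high in both replicates, and as a scaled score in which 540 stands for a global IDR of 0.05. The depth was low. The median peak height was 14 fragments in the first-listed replicate, over a mean background of 2.61, and 13 in the second-listed one, over 2.39, from the 58.3% and 63.5% of values from which a height could be recovered. In all, 3.33% of the list (465) reached a global IDR of 0.05 or lower, and 41.4% had the lowest score, 48.

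The enzymes COX-1 (Ptgs1) and COX-2 (Ptgs2) turn arachidonic acid into the prostaglandin precursor from which prostaglandin E2 and, through prostacyclin synthase (Ptgis), prostacyclin are made. Prostaglandin E2 holds the fetal DA open mainly through its receptor EP4 (Ptger4), which raises cAMP in SMCs, as does EP2 (Ptger2), whereas EP3 (Ptger3) lowers cAMP and EP1 (Ptger1) raises calcium. Endothelin-1 (Edn1) is a constrictor peptide that acts on SMCs through the ETA receptor (Ednra), and the ETB receptor (Ednrb) is best known for its part in endothelial cells and neural crest derivatives.

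Sequences from the peaks are shown first, for the peak with the highest matched strength of each of the 5 genes that had one. The Edn1 promoter peak and the strongest peak beside Ptger2, which the annotation gave to another transcript, are shown too. Each is the 251 bases centred on the matched summit, read from the plus strand of GRCm38 (mm10), 5′ to 3′. In 13 of the 15 peaks the matched summit was the midpoint of the summits of both replicates, to within 1 bp, so the windows of the Ptger4 peak and of the Edn1 promoter peak lie between the replicate summits and hold neither. Capitals mark an AP-1 motif (TGAGTCA or TGACTCA, which are reverse complements of each other) or a TEAD motif (AGGAATGC, AGGAATGT, GGGAATGC or GGGAATGT, on either strand), and a sequence without capitals held neither. The windows lie at chr1:150115689-150115939 for Ptgs2, chr2:36213916-36214166 for Ptgs1, chr15:5355016-5355266 for Ptger4, chr13:42328709-42328959 and chr13:42301185-42301435 for Edn1, chr8:77826461-77826711 for Ednra and chr14:45005820-45006070 beside Ptger2.
Ptgs2 downstream peak: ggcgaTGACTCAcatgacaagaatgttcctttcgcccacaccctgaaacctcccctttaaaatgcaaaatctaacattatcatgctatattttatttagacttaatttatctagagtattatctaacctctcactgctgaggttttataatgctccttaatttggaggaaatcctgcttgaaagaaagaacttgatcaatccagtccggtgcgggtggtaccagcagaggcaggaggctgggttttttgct
Ptgs1 upstream peak: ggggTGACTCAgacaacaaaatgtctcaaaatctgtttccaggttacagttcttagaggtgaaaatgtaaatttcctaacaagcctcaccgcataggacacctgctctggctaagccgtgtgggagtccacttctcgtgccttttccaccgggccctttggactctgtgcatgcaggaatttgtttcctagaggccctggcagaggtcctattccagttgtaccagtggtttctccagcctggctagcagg
Ptger4 upstream peak: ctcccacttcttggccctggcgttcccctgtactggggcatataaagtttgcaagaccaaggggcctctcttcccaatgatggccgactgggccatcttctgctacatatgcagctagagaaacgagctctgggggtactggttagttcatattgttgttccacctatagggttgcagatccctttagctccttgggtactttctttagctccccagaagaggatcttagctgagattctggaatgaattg
Edn1 downstream peak: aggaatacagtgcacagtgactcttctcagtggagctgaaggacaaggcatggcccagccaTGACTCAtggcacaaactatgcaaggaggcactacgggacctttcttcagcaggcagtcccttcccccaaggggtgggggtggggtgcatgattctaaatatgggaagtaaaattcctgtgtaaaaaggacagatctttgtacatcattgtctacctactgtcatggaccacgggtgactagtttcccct
Edn1 promoter peak: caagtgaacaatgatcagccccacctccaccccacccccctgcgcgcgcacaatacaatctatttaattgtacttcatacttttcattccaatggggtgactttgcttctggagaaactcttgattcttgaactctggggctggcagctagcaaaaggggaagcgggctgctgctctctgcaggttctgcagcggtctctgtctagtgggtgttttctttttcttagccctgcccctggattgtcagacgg
Ednra upstream peak: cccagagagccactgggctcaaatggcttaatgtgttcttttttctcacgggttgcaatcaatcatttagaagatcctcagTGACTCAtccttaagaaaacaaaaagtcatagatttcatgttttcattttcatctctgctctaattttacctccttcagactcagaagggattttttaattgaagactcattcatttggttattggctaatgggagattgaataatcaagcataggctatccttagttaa
Peak beside Ptger2: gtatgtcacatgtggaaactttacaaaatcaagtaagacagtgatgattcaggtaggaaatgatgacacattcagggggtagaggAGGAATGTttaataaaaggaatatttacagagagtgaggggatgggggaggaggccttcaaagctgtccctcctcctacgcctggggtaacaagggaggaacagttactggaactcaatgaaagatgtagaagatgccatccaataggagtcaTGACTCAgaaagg
The AP-1 heptamer TGACTCA stands in the windows of Ptgs2, Ptgs1, Ednra, the downstream peak of Edn1 and the peak beside Ptger2, and that last window also holds a TEAD motif. Neither motif stands in the windows of the Ptger4 upstream peak and the Edn1 promoter peak.

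The 10 genes fell into 3 kinds by their assigned peaks. Ptgs2 and Edn1 had a peak over the transcription start site (TSS) as well as peaks downstream. Ptgs1, Ptger4 and Ednra had peaks assigned to them that did not reach the TSS of their main transcript. Ptger1, Ptger2, Ptger3, Ptgis and Ednrb had none assigned, although Ptger2 had peaks close by. Counting every peak whichever gene it was given to, 5 of the 10 genes (Ptgs1, Ptgs2, Ptger2, Ptger4 and Edn1) had a peak within 100 kb of a TSS, against 44.0% of protein-coding genes (9622 of 21864). With a reach of 10 kb there were 3 (Ptgs2, Edn1 and Ptger4), against 11.5%. The share near the genes was thus close to the background at 100 kb, and for 10 genes the shares move in steps too coarse to read a difference from.

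**Figure D1:**
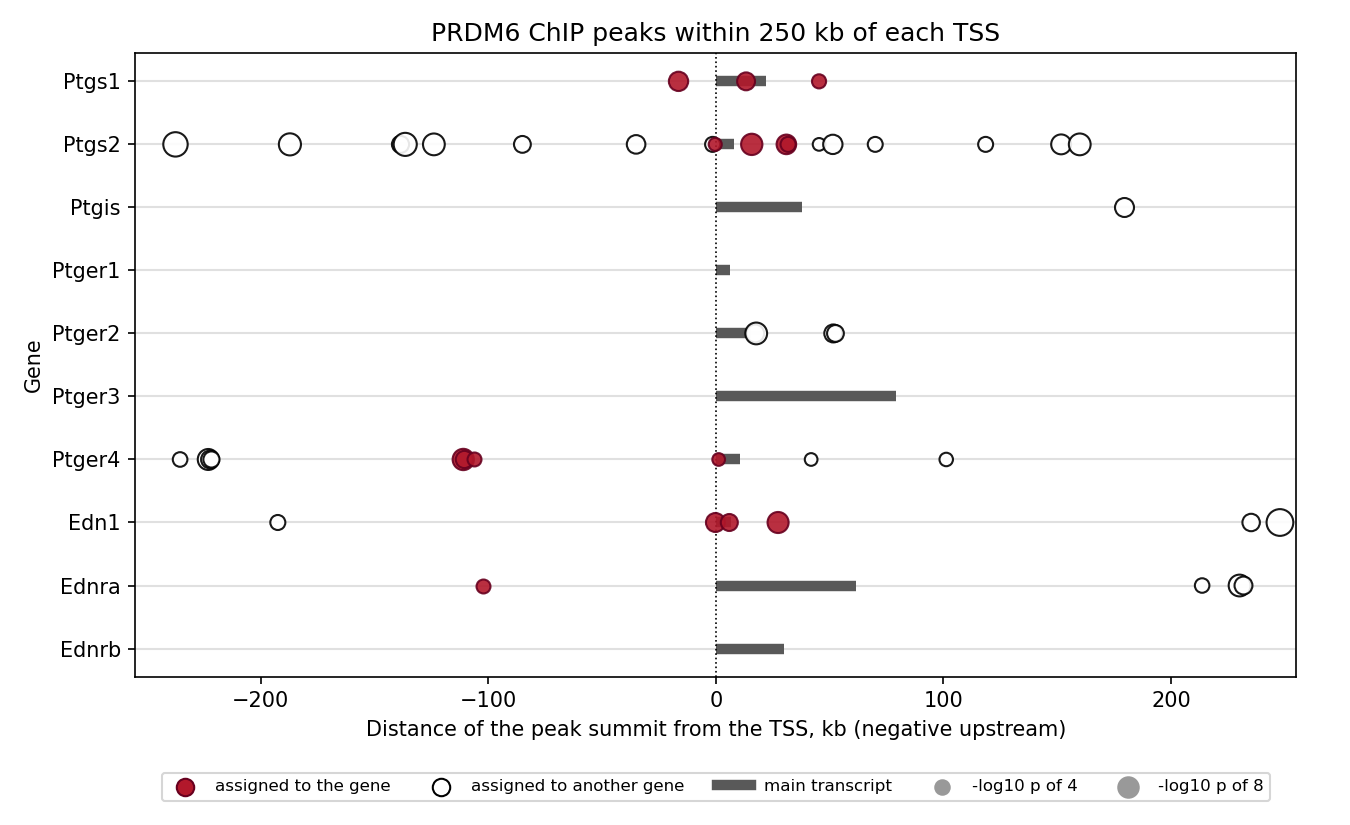
Peaks around the TSS of each of the 10 genes, with the distance from the main TSS in kb along the horizontal axis (positive is downstream) and the genes in rows. Peaks are told apart by whether the deposited annotation gave them to that gene or to another, and Ptgs2 has the densest row, with 18 peaks within 250 kb, while Ptger1, Ptger3 and Ednrb have empty rows.

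Ptgs2, whose product COX-2 is the inducible cyclooxygenase, lies at chr1:150100031-150108227 on the plus strand and had 4 assigned peaks. The strongest, chr1:150115081-150116067, had its summit 15.8 kb downstream of the TSS, in sequence the annotation calls distal intergenic. Its strength was 12.03 in the first-listed replicate and 8.72 in the second-listed one, and its height in the first-listed replicate was 20 fragments. At a matched strength of 8.72 it stood at percentile 88.8 of all peaks, and its global IDR, 0.170, was the lowest of the 15 peaks. Both replicates thus had this peak above the median of the list, which was 6.92 in the first-listed and 6.61 in the second-listed replicate. Its AP-1 motif lay 117 bp from the summit.

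A pair of peaks lay further downstream of Ptgs2, at 31.0 kb and 31.8 kb, with 97 bp between them. The former, chr1:150130797-150131227, had strengths of 10.2 (first-listed) and 7.36 (second-listed) and a global IDR of 0.316, with an AP-1 motif 77 bp from the summit and a TEAD motif 173.5 bp from it. The latter, chr1:150131325-150131990, was weaker, at 6.13 and 4.37. It had the lowest score of the list and neither motif.

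The peak over the Ptgs2 TSS, chr1:150099401-150100365, was the weakest of the 4 by matched strength. It had a strength of 6.15 in the first-listed replicate, where its height was 13 fragments, and of 3.29 in the second-listed one, just above the p-value limit of 0.001. Only 3.44% of the list ranked below it, and its score was the lowest, 48, at a global IDR of 0.759. The matched summit was 262 bp upstream of the Ptgs2 TSS and fell in the first exon of the antisense transcript Ptgs2os. It did not lie between the replicate summits, which were 507 bp (first-listed) and 445 bp (second-listed) upstream of the Ptgs2 TSS.

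Peaks were dense around Ptgs2. Within 100 kb of its TSS there were 10, a number that 151 of 21864 protein-coding genes (0.691%) reached, where the median gene had 0 and the highest number was 22. Within 250 kb there were 18 peaks, of which 4 were assigned to Ptgs2, 2 to Ptgs2os, 4 to the other antisense transcript Ptgs2os2, 2 to Pdc and 6 to Pla2g4a. Pla2g4a encodes cytosolic phospholipase A2, which frees arachidonic acid, the substrate of both cyclooxygenases, and its TSS lies 138741 bp from that of Ptgs2. The strongest of the 18, chr1:149861459-149863441, was in a Pla2g4a intron and had strengths of 15.8 and 11.4 and a global IDR of 0.0407, under the 0.05 that no peak of the 10 genes reached. Chromosome 1, where these genes lie, had the third highest peak density of all chromosomes, at 7.22 peaks per Mb.

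Ptgs1, whose product COX-1 is the constitutive cyclooxygenase, lies at chr2:36230426-36252272 on the plus strand and had 3 assigned peaks. The upstream peak, chr2:36213845-36214464, had its summit 16.4 kb before the TSS. It had nearly equal strengths, 7.17 in the first-listed and 7.42 in the second-listed replicate, and the summits of both replicates were 8 bp apart, the closest of the 15. Its height in the second-listed replicate was 14 fragments. The intragenic peak, chr2:36243559-36244245, had strengths of 6.15 and 8.25 and heights of 13 and 15 fragments. The annotation called it a promoter peak, 1084 bp from a start, but that start belongs to an internal transcript and lies 12049 bp downstream of the main TSS, and the summit lay in intron 8 of the gene.

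The third Ptgs1 peak, chr2:36274551-36276645, lay 45.4 kb downstream of the TSS, beyond the end of the gene, and was the widest of the 15, at 2095 bp. The replicates differed most here. The first-listed replicate had a strength of 18.9, with a height of 27 fragments, and the second-listed one had 3.83. The gap of 15.1 between them was matched or exceeded by 31 peaks of the list (0.222%), and the summits of the replicates were 729 bp apart. This peak was the strongest of the 15 in the first-listed replicate, while in the matched list it stood at percentile 12.4.

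Ptgis lies at chr2:167202907-167240604 on the minus strand and had no assigned peak. The nearest peak was 178955 bp from its TSS and was assigned to Znfx1, with strengths of 6.92 and 10.9. The median protein-coding gene had its nearest peak at 123006 bp.

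Ptger4, the gene of EP4, lies at chr15:5233399-5244187 on the minus strand and had 4 assigned peaks, of which 3 lay over 100 kb upstream. The strongest, chr15:5354910-5355576, was 111 kb from the TSS and had strengths of 10.7 and 8.72 and a global IDR of 0.191. Its matched strength equalled that of the strongest Ptgs2 peak. Repeat-masked bases made up 69.4% of it, the most of the 15 peaks, against a median of 14.3% over the list. A second peak, chr15:5354576-5354764, began 145 bp away and was the narrowest of the 15, at 189 bp, with strengths of 6.04 and 5.70. The last of the 3, chr15:5349812-5350469, lay 106 kb from the TSS and had strengths of 9.90 and 3.73. A replicate pair was thus close in the narrow peak and far apart in the last one.

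The only peak in or near the Ptger4 gene body, chr15:5242791-5243149, was the weakest of all 15, with strengths of 4.32 in the first-listed and 3.09 in the second-listed replicate and a rank of 13800 among the 13977 peaks. The annotation gave it as a promoter peak, 81 bp from the start of a transcript that begins 1477 bp downstream of the main TSS. Its nearer edge was 1038 bp from the main TSS, and its summit lay in a coding exon. Neither an AP-1 nor a TEAD motif was found anywhere in the 4 Ptger4 peaks.

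Ptger4 had 10 peaks within 250 kb of its TSS, of which 4 were its own, 4 were assigned to 5430437J10Rik, and 1 each to Ttc33 and Prkaa1. If each peak was given to the protein-coding gene with the nearest TSS instead, an alternative chosen after the data were seen, Ptger4 had 15 peaks, 11 of them from 5430437J10Rik, but only 1 lay within 100 kb. Chromosome 15 had the highest peak density, 8.29 per Mb. None of the 8 Ptger4 strengths could be turned into a height on the genome-wide background, and over chromosome 15 this was possible for 21.6% of the first-listed and 26.7% of the second-listed values, so the depth behind the Ptger4 peaks is not known.

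Ptger2, the gene of EP2, lies at chr14:44988195-45003820 on the plus strand and had no assigned peak, yet 4 peaks lay within 100 kb of its TSS. All 4 were assigned to 4930431P03Rik, whose transcript starts 1504 bp downstream of the Ptger2 TSS on the opposite strand. The nearest, chr14:45005234-45005678, began 1414 bp past the end of Ptger2 and had strengths of 6.15 and 6.46. The next, chr14:45005785-45006392, had strengths of 13.9 and 9.10 and a global IDR of 0.112. Its matched strength was above that of each of the 15 assigned peaks. The other two, 51.6 kb and 52.6 kb from the Ptger2 TSS, had matched strengths of 6.21 and 5.42.

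Ptger1, at chr8:83666678-83672753, and Ptger3, at chr3:157566892-157645888, had no peak within 250 kb. The nearest peak to a Ptger1 TSS was 301791 bp away and assigned to Mgat4d. For Ptger3 it was 316993 bp away and assigned to Cth, with strengths of 12.95 and 13.7. Of the 4 receptor genes of prostaglandin E2, Ptger4 and Ptger2 had peaks within 100 kb and Ptger1 and Ptger3 had none. Among protein-coding genes, 44.0% had a peak at that reach. The 2 Ptger4 peaks within it were the one 1.3 kb downstream and one 41.9 kb downstream, assigned to Ttc33. Both had a matched strength of 3.09 and the lowest score, 48, with 4.32 and 7.89 in the first-listed replicate. A count over 4 genes supports no test of that split.

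Edn1, the gene of endothelin-1, lies at chr13:42301476-42307990 on the plus strand and had 3 assigned peaks. The promoter peak, chr13:42300837-42302160, covered the TSS. Its summit lay 353 bp upstream of the TSS in the first-listed replicate and 21 bp downstream in the second-listed one, and the matched summit was their midpoint. It had strengths of 6.92 in the first-listed and 9.10 in the second-listed replicate and heights of 14 and 16 fragments, and it stood at percentile 74.4 of the list. It was the stronger of the 2 peaks among the 15 that covered the TSS they were assigned to, as 6.64% of the list did. The other was that of Ptgs2. In the first-listed replicate these promoter peaks were close, at 6.92 for Edn1 and 6.15 for Ptgs2, and in the second-listed one they were apart, at 9.10 and 3.29.

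A second Edn1 peak, chr13:42306861-42307613, had its summit in the 3′ UTR, in exon 5, with strengths of 5.56 and 11.8 and a height of 19 fragments in the second-listed replicate. It held a TEAD motif, AGGAATGC, 95.5 bp from the summit, and AP-1 motifs 157 bp and 167 bp from it on either side. By matched strength the strongest Edn1 peak was chr13:42328687-42329465, 27.4 kb downstream of the TSS, although the 3′ UTR peak was higher in the second-listed replicate. The strengths of the peak at 27.4 kb, 8.52 and 9.10, were close, its height was 16 fragments in both replicates, and the summits were 27 bp apart. An AP-1 motif lay 61 bp from its summit and a TEAD motif 160.5 bp from it. In all 3 Edn1 peaks the second-listed replicate was the higher, whereas in all 4 Ptgs2 peaks and all 4 Ptger4 peaks the first-listed one was. Within 250 kb of the Edn1 TSS there were 6 peaks, of which 3 were its own, 2 were assigned to Phactr1 and 1 to Hivep1. The strongest of the 6, chr13:42548559-42549805, was 1 of the Phactr1 peaks, 247.8 kb downstream of the Edn1 TSS, with strengths of 15.8 and 13.7, a global IDR of 0.0195, and both an AP-1 and a TEAD motif within 100 bp of its summit.

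Ednra, the gene of ETA, lies at chr8:77663031-77724436 on the minus strand and had 1 assigned peak, chr8:77826443-77826900, 102.2 kb upstream of the TSS. It had a strength of 8.52 in the first-listed replicate, with a height of 16 fragments, and of 3.73 in the second-listed one, and its score was the lowest of the list. An AP-1 motif lay 41 bp from its summit. The next peak was 315509 bp away, on the other side of the gene. It was 1 of 3 peaks within 250 kb downstream of the Ednra TSS, at 213.7, 230.1 and 231.8 kb, all assigned to 0610038B21Rik, of which the strongest had strengths of 11.1 and 9.10. Ednrb, at chr14:103814625-103844402 on the minus strand, had its nearest peak 374110 bp from its TSS, the farthest of the 10 genes, and that peak was assigned to Scel.

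**Figure D2:**
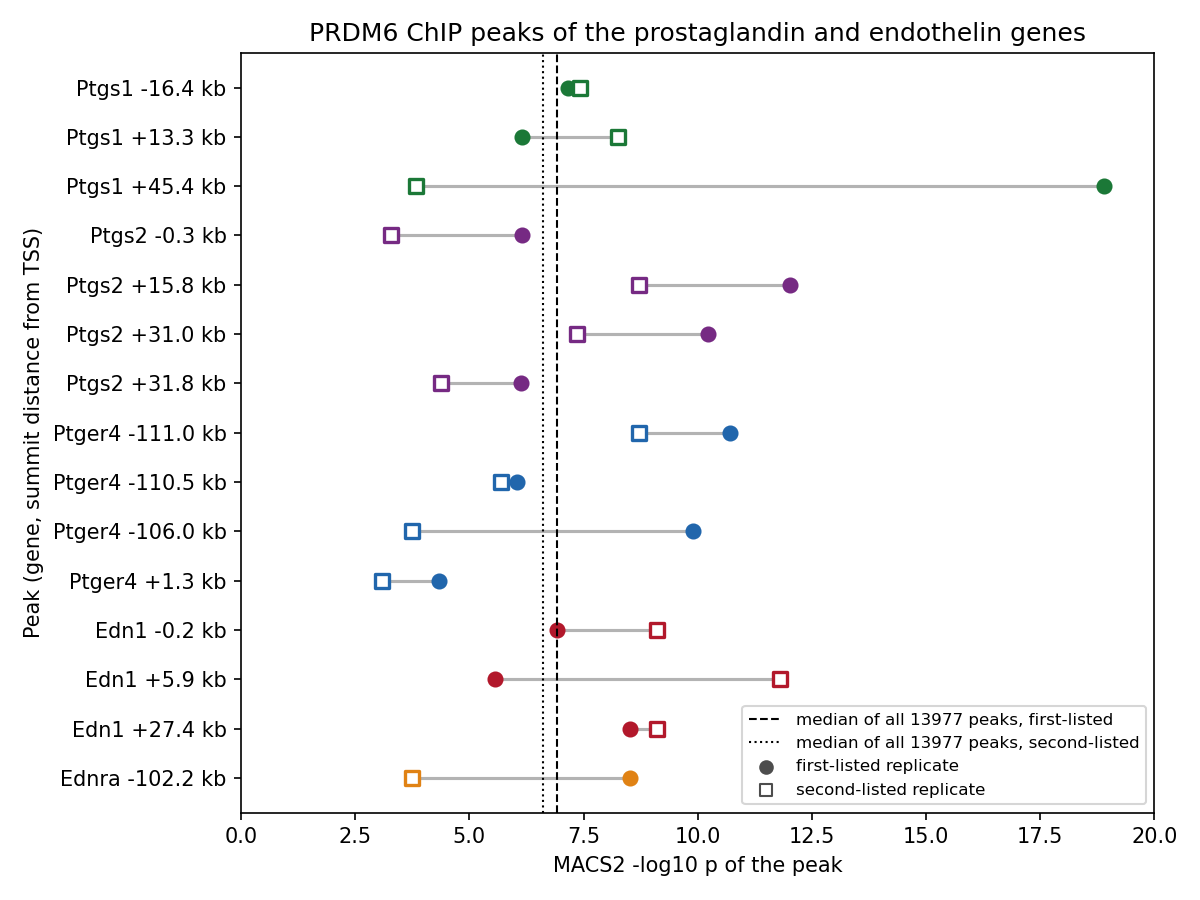
Strength (−log10 p) of each of the 15 peaks in each replicate (filled circles first-listed, open squares second-listed), grouped by gene. Lines join the replicates of a peak. The Ptgs1 peak 45.4 kb downstream has the widest gap, 18.9 against 3.83, and the Ptgs1 peak 16.4 kb upstream one of the narrowest, 7.17 against 7.42.

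As a group the 15 peaks were of about the strength of the rest of the list. Their matched strength ranged from 3.09 to 8.72 with a median of 5.70, against a median of 5.53 and a highest value of 29.0 over all peaks, and 9 of the 15 were above the median of the list. None of the 15 reached a global IDR of 0.05, against 3.33% of the list, and their global IDR ran from 0.170 to 0.759 with a median of 0.550, the same as over all peaks. The lowest score was held by 6 of the 15 (40%), namely 2 peaks of Ptgs2, 3 of Ptger4 and that of Ednra. The heights that could be recovered, 8 in the first-listed and 5 in the second-listed replicate, lay between 13 and 27 fragments.

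The replicates ranked the 15 peaks differently. The first-listed replicate was higher in 10 of them (66.7%, against 52.1% of the list). Spearman's rho between the replicates was 0.108 over the 15 peaks and 0.263 over all peaks, as a description only, since peaks of a gene share their surroundings and all peaks share the same libraries. The gap between replicates had a median of 2.19 among the 15 and 2.0 in the list. It was at most 1 in 3 of the 15 (25.0% of the list) and over 4 in 4 of them (22.3% of the list), of which the first-listed replicate was the higher in 3. The summits of both replicates were 175 bp apart at the median, against 121 bp in the list.

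**Figure D3:**
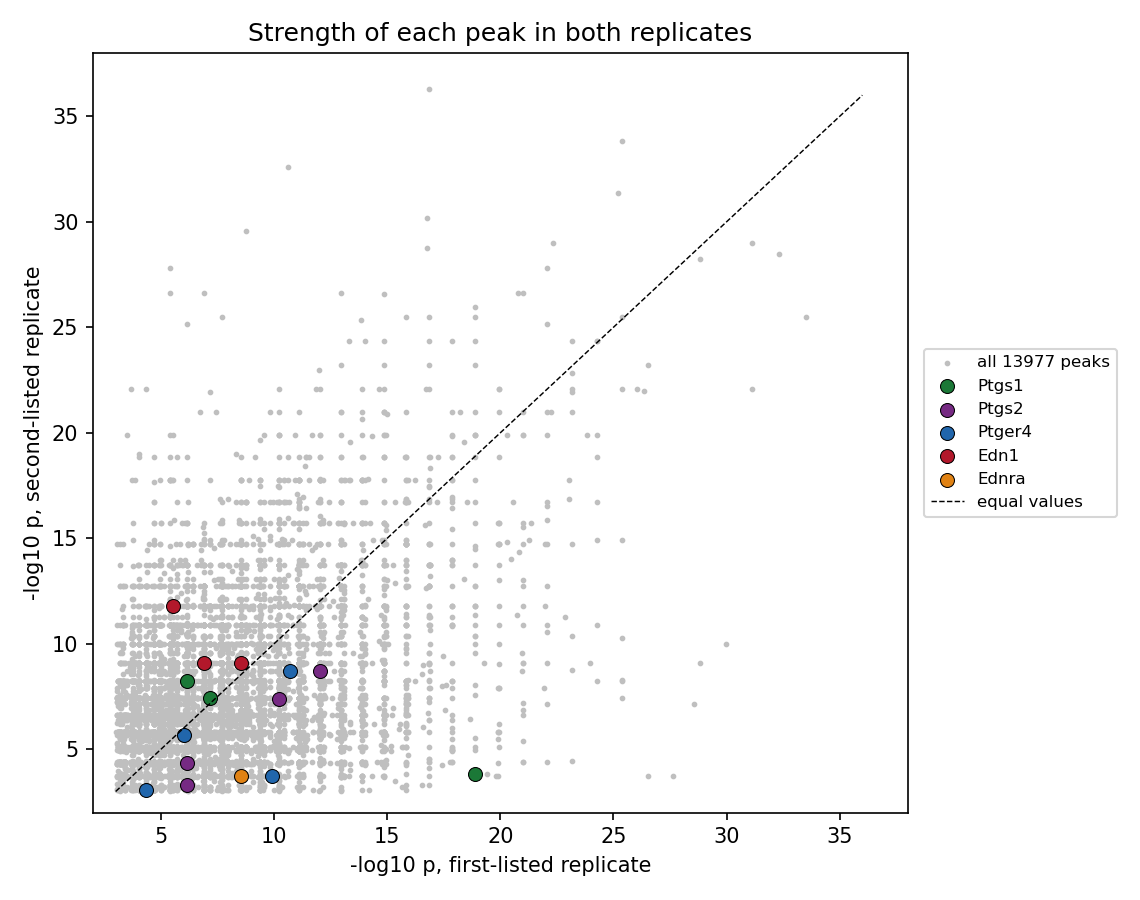
Strength (−log10 p) in the first-listed replicate against that in the second-listed replicate, with all 13977 peaks in the background and the 15 peaks of the 10 genes coloured by gene. The Ptgs1 peak at 18.9 and 3.83 lies farthest from the diagonal among the 15, with a gap that 0.222% of the list matched or exceeded.

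By position, 10 of the 15 peaks were distal intergenic (66.7%, against 37.2% of the list), 4 were promoter peaks (26.7%, against 21.3%), 1 was in a 3′ UTR and none was called intronic, a class that held 35.9% of the list. The 4 promoter peaks were 1 each of Ptgs1, Ptgs2, Ptger4 and Edn1, and only those of Ptgs2 and Edn1 came within 1 kb of the main TSS. Over 10 kb from the assigned TSS lay 10 of the 15 (65.2% of the list), and over 100 kb lay 4, the 3 upstream peaks of Ptger4 and that of Ednra (19.3% of the list). Summits were upstream of the main TSS in 7 and downstream in 8. Peaks less than 150 bp from another peak made up 4 of the 15 and 7.25% of the list, and these were the pair downstream of Ptgs2 and the pair upstream of Ptger4. The 15 peaks had a median width of 667 bp, against 600 bp, and a median GC content of 46.7%, against 43.2%. The peak at the Ptgs2 TSS had the highest GC content, 57.2%, and that of Ednra the lowest, 35.6%.

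The study had reported AP-1 and TEAD consensus sequences, and a TTTC/AT sequence, as overrepresented in this same set of peaks. The motif counts given here are thus not independent of that result. An AP-1 motif lay within 100 bp of the summit in 4 of the 15 peaks (26.7%, 95% Wilson interval 10.9% to 52.0%), against 14.3% of the list, and anywhere in the peak in 8 of 15 (53.3%, interval 30.1% to 75.2%), against 34.3%. Both shares of the list lie inside these intervals, which cover counting error only. The intervals treat the 15 peaks as independent, although they come from 5 genes and some are close neighbours. They are a description and decide no difference. The 4 were the Ptgs1 peak 45.4 kb downstream, the Ptgs2 peak 31.0 kb downstream, the Edn1 peak 27.4 kb downstream and the Ednra peak, all of them distal intergenic, a class in which 16.2% of all peaks held the motif. In the Ptgs1 peak the motif lay 21 bp from the matched summit, but that summit was not between those of the replicates, from which the motif was 217 bp (first-listed) and 946 bp (second-listed) away. From the replicate summits the motif was 201 bp and 47 bp away in the Ptgs2 peak, 75 bp and 48 bp in the Edn1 peak, and 29 bp and 111 bp in the Ednra peak.

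A TEAD motif lay within 100 bp of the summit in 1 of the 15, the Edn1 peak in the 3′ UTR (6.67%, against 7.45% of the list), and anywhere in the peak in 3 (20%, against 19.2%), the others being those of Ptgs2 at 31.0 kb and of Edn1 at 27.4 kb. All 3 also held an AP-1 motif. The hexamers TTTCAT and TTTCCT, on either strand, stood within 100 bp of the summit in 10 of 15 peaks (66.7%, interval 41.7% to 84.8%), against 43.1% of the list, and anywhere in the peak in 13 of 15 (86.7%, interval 62.1% to 96.3%), against 76.7%. Both shares of the list lie inside these intervals, which have the same limit as those for AP-1. The Ednra peak held 3 copies of TTTCAT within 10 bp of its summit. The CArG box, the binding element of serum response factor at SMC genes, was found in none of the 15 peaks, and neither was the full cAMP response element TGACGTCA. A count of 0 of 15 allows a share of up to 20%, and 4.75% (CArG box) and 0.680% (cAMP response element) of the list held these elements anywhere in the peak, or 1.41% and 0.286% within 100 bp of the summit.

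**Figure D4:**
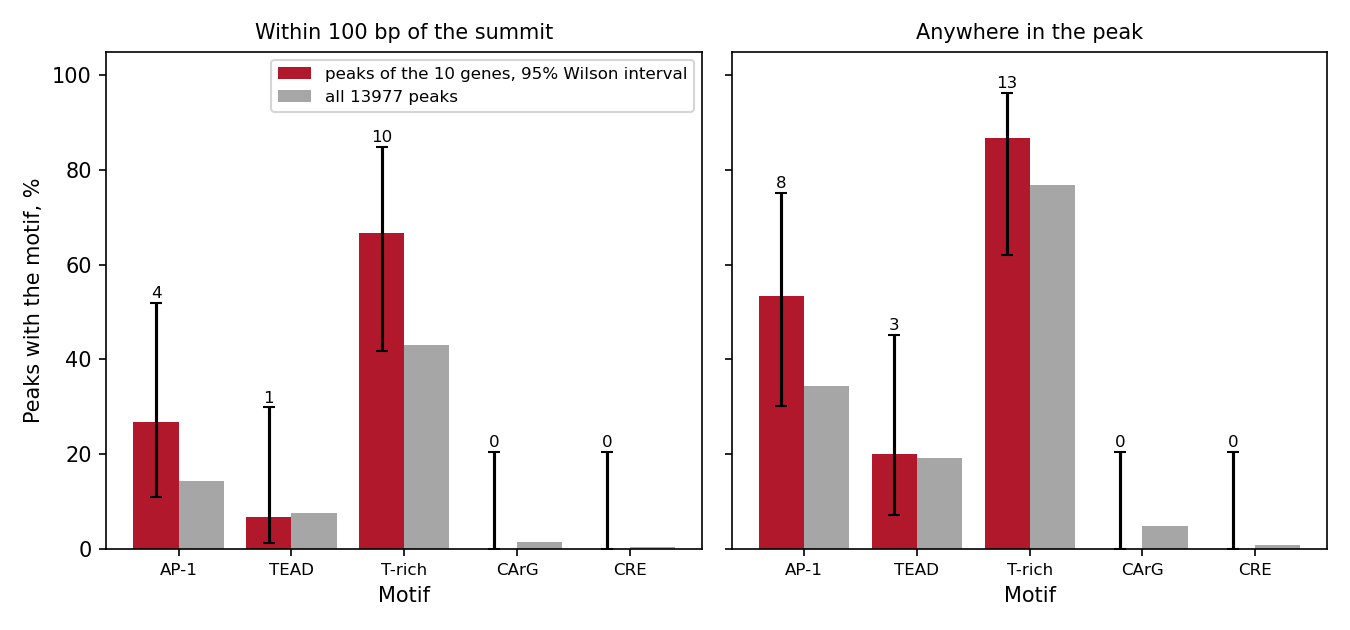
Share of peaks, in percent, with each motif within 100 bp of the summit (left) or anywhere in the peak (right), for the 15 peaks of the 10 genes and for all 13977 peaks, with 95% Wilson intervals for the 15 and the number of them above each bar. T-rich stands for TTTCAT or TTTCCT and CRE for the cAMP response element. Near the summit the AP-1 share is 26.7% against 14.3% and its interval takes in the share of the list.

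RefSeq promoters, from 250 bases before to 50 bases after the start, were matched by symbol for 8 of the 10 genes (those of Ptger1 and Ptgis were not). Those of Edn1 and Ptgs2 overlapped a peak. The share of all promoters that overlapped a peak is not given here, so this count has no background beside it. Neither the Edn1 nor the Ptgs2 promoter held an AP-1 motif, a TEAD motif, a CArG box or the cAMP response element. Of all 32851 promoters, 5.20%, 4.23%, 1.63% and 1.79% held these. The Edn1 promoter held TTTCAT and TTTCCT once each and the Ptgs2 promoter held TTTCCT once, on the minus strand. The promoters of Ednra and Ednrb, which overlapped no peak, each held 1 of the hexamers, so that 4 of the 8 had either, where 38.9% of all promoters did. No match says only that these letters were not in the window.

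The other genes of these pathways were looked up from 3 lists. Of 15 further prostanoid genes, 4 had a peak (26.7%, against 20% of protein-coding genes), with 23 peaks between them. They were Pla2g4a with 11 peaks, the thromboxane synthase gene Tbxas1 with 5, the prostaglandin transporter gene Slco2a1 with 4 and the prostaglandin E synthase gene Ptges with 3. The strongest Slco2a1 peak had strengths of 8.52 and 10.9, the strongest Tbxas1 peak 7.71 and 6.39, and the strongest Ptges peak 6.15 and 9.43. Among the genes of the list without a peak were the prostacyclin receptor Ptgir, the thromboxane receptor Tbxa2r, and Hpgd, whose product inactivates prostaglandins. None of the 5 further endothelin genes had an assigned peak (0%, against the same 20%). These were the ligands Edn2 and Edn3, and Ece1, Ece2 and Mme, whose products process or degrade endothelin. Whichever gene it was assigned to, 1 peak each lay within 100 kb of Edn2 (76683 bp) and Ece1 (78044 bp). Among protein-coding genes, 44.0% had a peak at that reach.

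Of 23 genes of cAMP signalling, the path downstream of EP2 and EP4, 10 had a peak (43.5%, against the same 20%), with 42 peaks. The phosphodiesterase genes Pde4d, with 16 peaks, and Pde4b, with 9, held most of them. The products of both break down cAMP, and each gene had 1 peak with an IDR under 0.05. The strongest Pde4d peak had strengths of 13.1 and 12.8 and the strongest Pde4b peak 14.9 and 11.8. The others were Pde3a with 4 peaks, Creb1 with 3, Pde3b, Adcy1, Prkar2a and Prkar2b with 2 each, and Adcy8 and Prkar1a with 1 each. The genes differ in length and in the room around them, which was not taken into account in these shares.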

How the data were processed

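The authors filtered and trimmed paired reads, aligned them to mm10 with BWA, ran MACS2 on each ChIP replicate with its matching input and joined the 2 sets of peaks by IDR. Versions are not given in the sources used here. The deposited values are −log10 p per replicate, the smaller of both for the matched peak, −log10 IDR, and a score scaled from the global IDR. The deposited signal and q-value columns held a placeholder, so the −log10 p stood in for the signal named in the plan. The annotation column headed as a q-value held the −log10 p of the second-listed replicate, per the file headers and a comparison of the values, and other columns gave the authors' class, transcript and distance.

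Coordinates were written from 1. Motifs were searched on both strands in GRCm38 sequence, within 100 bp of the summit, and overlaps were counted. Main transcripts came from GENCODE M21. Depth was recovered by matching each −log10 p to a Poisson tail within 0.0002, and this step and the motif search were tested on simulated data. The tools were SciPy 1.17.1, pandas 2.3.3, NumPy 2.4.6 and, for figures, matplotlib 3.10.9, under Python 3.11.15. Peaks are not replicates, so no test was run and shares were set beside those of the whole list. Intervals are 95% Wilson intervals, which treat the peaks as independent and serve as a description only.

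The genes and lists were chosen with earlier results of these data known. All 10 genes were named with all their peaks, and other genes where they were on 1 of 3 lists and had a peak or were assigned a peak near one of the 10. A few list genes without a peak were named too, chosen after the list was seen. The alternatives were IDR limits of 0.05 and 0.01, limits on distance, other assignments of peaks to genes, other motif windows, narrower promoters and each replicate alone.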

Additional observations from a re-analysis of the deposited data

How the results depend on the processing

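With a global IDR of at most 0.05 or of at most 0.01, 0 of the 10 genes had an assigned peak and 0 peaks were assigned, so no median strength could be computed, and at 0.05 0 genes had a peak within 100 kb. The other limits moved counts by their construction. The number of genes with a peak, 5, was 4 within 100 kb and within 10 kb of the assigned start (Ptgs1 within 10 kb by an internal start), 3 when each peak was given to the nearest TSS of any gene, and 6 with the nearest protein-coding TSS, an alternative chosen after the data were seen. The number of peaks, 15, was 11 within 100 kb, 5 within 10 kb, 3 with the nearest TSS of any gene and 35 with the nearest protein-coding TSS. The median strength, 5.70, was 7.17 to 7.36 in each replicate alone and 8.52 over the strongest peak of each gene. AP-1 motifs near the summit, 4, were 2 within 50 bp (7.61% of the list), 8 within 250 bp (30.7%), 8 in the whole peak (34.3%) and 3 to 4 at the summits of each replicate alone (12.3% to 13.3%). TEAD motifs, 1, were 0 within 50 bp (4.09% of the list), 3 within 250 bp (15.7%), 3 in the whole peak (19.2%) and 0 to 2 at the summits of each replicate alone (6.83% to 7.16%). Promoter peaks, 4, were 3 within 1 kb of the assigned transcript's start (that of Ptger4 by an internal start) and 2 when the peak had to cover that start. Genes with a peak within 100 kb, 5, were 5 within 50 kb and 3 within 10 kb. No paired analysis was possible because the list names its replicates by order only, holds no Input values and allows no test.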
